A study of Homo sapiens with 8 samples.

Results

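Regulators of the rhombic lip and of the unipolar brush cells that arise from it, and *KIRREL2*, were examined in H3K27Ac profiles of medulloblastoma (MB) lines. The 9 genes, *EOMES*, *LMX1A*, *TBR1*, *PAX6*, *LHX2*, *MEIS1*, *BARHL1*, *ATOH1* and *KIRREL2*, were chosen by name, out of 27333 genes analysed. *KIRREL2* encodes an adhesion protein known from the ventricular zone and is thus no regulator of the rhombic lip, but it is included in every count over the 9 genes. A region was assigned to a gene when it overlapped the gene body or lay within 50 kb of the transcription start site (TSS) in GRCh38. ChIP-seq of H3K27Ac, which marks active enhancers and promoters, covered 3 lines labelled as Group 3 (G3-MB), MB002, D425 and HD-MB03, and UW228, a line labelled as SHH subtype. Each of the 4 lines had 1 H3K27Ac library and 1 input library of sonicated DNA without immunoprecipitation, so there was no spread between replicates and all values describe single libraries. MB002 and HD-MB03 were grown in a serum-free stem cell medium, and D425 and UW228 in DMEM with serum. With 3 lines against 1, an exact two-sided permutation test cannot give a p below 0.25, so no test was made. The UW228 table was also produced on a later date than the others, and subtype, line and date cannot be told apart.

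The deposited regions are stitched H3K27Ac peaks with an H3K27Ac signal and an input signal, each a library-normalized read density times the region's length. Signal below is H3K27Ac minus input, floored at 0, and summed over the regions of a gene. Rank 1 is the region with the most signal in a line, and the top-ranked regions were called super-enhancers (SEs). MB002 had 26072 regions with 363 SEs, D425 had 26317 with 431, HD-MB03 had 15286 with 302 and UW228 had 20875 with 753. Regions were called separately in each line, so a summed signal moves with how much was called, and covered length and signal per base pair are given beside it. The length of a region includes the gaps between its stitched peaks, so stitching lowers the signal per base pair. In the methods, regions flanking promoters were left out before stitching. Regions over any TSS made up 5.82% of all regions in D425 to 7.86% in HD-MB03. A lack of overlap with a TSS therefore does not show the lack of a peak at the promoter. Library depth is unknown. The stitching distance given with the regions differs slightly from that in the methods. Whether UW228 was processed with the same settings as the G3-MB lines is also unknown, and lengths, summed signals and SE calls depend on them.

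The rhombic lip is the dorsal germinal zone of the hindbrain and gives rise to the glutamatergic neurons of the cerebellum, among them granule cells, unipolar brush cells and neurons of the cerebellar nuclei. ATOH1 marks its early progenitors, whereas EOMES and LMX1A mark the brush cell lineage. The GABAergic neurons of the cerebellum come from the ventricular zone, which depends on PTF1A.

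Sequences of 4 loci on which the results turn are shown in GRCh38, the first pair from stretches shared by the regions of all 3 G3-MB lines and the second pair from promoters overlapped by a region in 4 lines (*MEIS1*) and in 1 line (*TBR1*). The *LMX1A* stretch, chr1:165235512-165235811, plus strand, lay in intron 4 of the gene. The *LHX2* stretch, chr9:124041234-124041533, plus strand, lay downstream of the gene. The promoters, from RefSeq, were chr2:66434875-66435174 of *MEIS1* and chr2:161416047-161416346 of *TBR1*, both on the plus strand, with 250 bases before the TSS and 50 after. Promoters of 8 of the 9 genes were matched, all but *KIRREL2*. Capitals mark TAATCC (the OTX and CRX type of homeodomain site), TAATTA (a site of LIM and other homeodomains), CAGATG (a proneural E-box) and AGGTGT (a T-box half-site), searched on both strands.
LMX1A shared region: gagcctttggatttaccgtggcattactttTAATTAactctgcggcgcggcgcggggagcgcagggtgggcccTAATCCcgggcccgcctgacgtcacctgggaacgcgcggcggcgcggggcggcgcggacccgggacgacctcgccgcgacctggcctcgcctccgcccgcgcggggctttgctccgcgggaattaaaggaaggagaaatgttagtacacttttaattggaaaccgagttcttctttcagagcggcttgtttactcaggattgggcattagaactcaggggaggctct
LHX2 shared region: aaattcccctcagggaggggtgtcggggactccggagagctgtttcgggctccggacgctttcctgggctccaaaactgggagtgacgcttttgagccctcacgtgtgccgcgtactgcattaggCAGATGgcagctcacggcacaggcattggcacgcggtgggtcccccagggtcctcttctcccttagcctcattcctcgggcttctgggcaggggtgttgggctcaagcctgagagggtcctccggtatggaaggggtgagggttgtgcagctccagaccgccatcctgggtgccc
MEIS1 promoter: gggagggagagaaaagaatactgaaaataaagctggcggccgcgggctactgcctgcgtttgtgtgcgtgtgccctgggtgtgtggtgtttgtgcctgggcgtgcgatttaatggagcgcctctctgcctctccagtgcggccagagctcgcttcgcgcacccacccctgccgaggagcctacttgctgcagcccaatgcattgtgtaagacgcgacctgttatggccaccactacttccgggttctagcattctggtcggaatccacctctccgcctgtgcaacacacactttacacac
TBR1 promoter: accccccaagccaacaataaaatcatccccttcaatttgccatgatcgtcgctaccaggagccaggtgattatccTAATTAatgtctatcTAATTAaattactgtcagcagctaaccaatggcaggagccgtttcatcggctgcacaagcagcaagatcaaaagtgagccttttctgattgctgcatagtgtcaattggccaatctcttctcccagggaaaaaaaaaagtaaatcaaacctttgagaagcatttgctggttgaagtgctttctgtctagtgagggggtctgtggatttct
The *LMX1A* stretch held 1 TAATCC and 1 TAATTA, the *LHX2* stretch 1 CAGATG and the *TBR1* promoter 2 TAATTA, and the *MEIS1* promoter held none of the 4 motifs. Of 35116 promoters of 300 bases, 6.36% held TAATCC, 4.84% TAATTA, 14.7% CAGATG and 11.4% AGGTGT. In windows of 300 bases at the centres of the regions, TAATCC was held by 18.2% in UW228 to 23.3% in MB002 and TAATTA by 7.54% in HD-MB03 to 11.3% in UW228. CAGATG ranged from 19.3% in UW228 to 27.7% in HD-MB03, and AGGTGT from 13.8% in UW228 to 16.4% in D425. The GC content of the *LMX1A* stretch was 61.7% and that of the *LHX2* stretch 63.3%, against medians at the centres of the regions of 47.3% in HD-MB03, 46.0% in D425, 44.3% in MB002 and 41.3% in UW228. The matches are descriptions of letters and not of bound sites.

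At least 1 region was found for 7 of the 9 genes in MB002, where 67.7% of all genes had one, and likewise for 7 in D425 (69.3% of all genes). HD-MB03 also had regions at 7 of the genes (54.4%), and UW228 at 3 (59.2%). The share of the 9 genes was thus 77.8% in each G3-MB line, close to that of all genes in MB002 and D425, and 33.3% in UW228, below that of all genes. *LMX1A*, *LHX2*, *TBR1* and *KIRREL2* had a region in every G3-MB line and none in UW228, a pattern of 10.7% of all genes. The same 4 of 9 genes had more signal in every G3-MB line than in UW228, as did 20.2% of all genes. For these 4 genes this follows from the lack of a region in UW228 and is no separate result. *ATOH1* was the 1 gene with no region in any line, as were 13.6% of all genes. With a window of 100 kb *LHX2* gained a region in UW228 and *ATOH1* gained one in HD-MB03, which ends both calls.

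Of the 9 genes, 2 had a SE in any line. None had a SE in MB002, against 3.20% of all genes, and 1 of 9 (11.1%), *MEIS1*, had a SE in D425, against 4.20%. In HD-MB03 1 of 9 (11.1%), *TBR1*, had a SE, against 3.04% of all genes, and in UW228 none did, against 5.26%. A SE in at least 1 G3-MB line and none in UW228 was found for 2 of 9 genes (22.2%) and for 6.88% of all genes. Each of these shares of the 9 genes rests on 1 or 2 genes. The *MEIS1* call in D425, at rank 388 of 431 SEs, was lost without input subtraction and when only the 200 top-ranked regions were counted. In MB002 the *MEIS1* signal near the TSS was split over adjacent regions, as described below, so its lack of a SE there depends on stitching.

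The median summed signal over all 9 genes, with genes lacking a region at 0, was 2775 in HD-MB03, 2644 in MB002, 783 in D425 and 0 in UW228. Over all genes the medians were 196, 968, 1040 and 565, respectively. The median of the 9 genes was therefore above that of all genes in MB002 and HD-MB03 and below it in D425 and UW228. The median gene length was 15.7 kb for the 9 genes and 17.5 kb for all genes. *LMX1A* and *MEIS1* were far longer than either median, and regions are counted over the whole gene. In MB002 they had 49343 and 59554 of a signal of 140474 summed over the 9 genes. In HD-MB03 the shorter *TBR1* led, with 42575 of 84410.

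**Figure D1:**
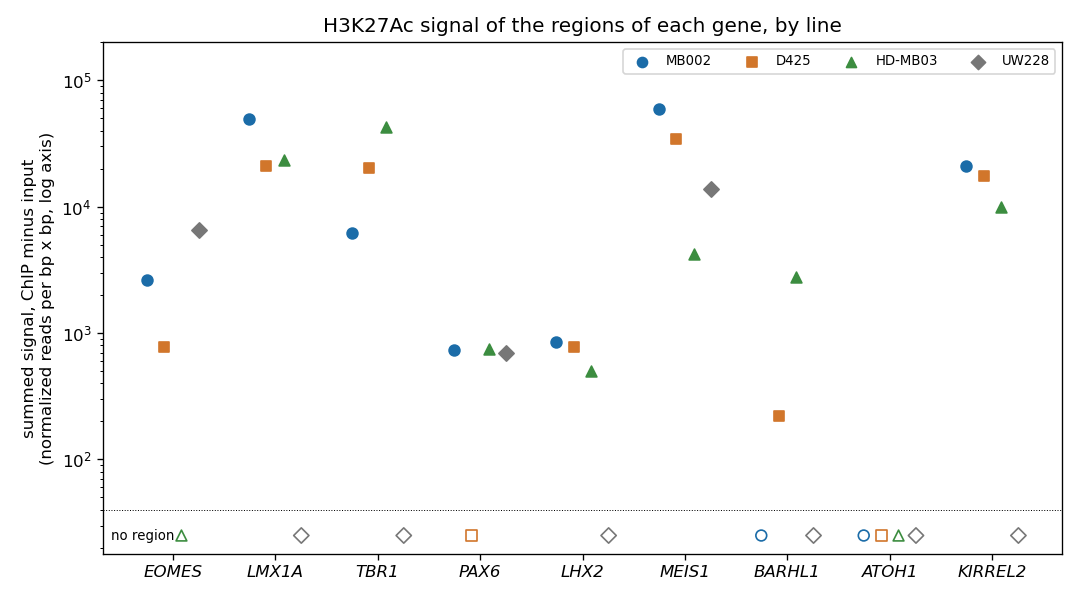
Summed signal (H3K27Ac minus input, log axis) of each of the 9 genes in the 4 lines, 1 point per line, with open symbols at the bottom for genes without a region. *LMX1A*, *TBR1*, *LHX2* and *KIRREL2* have filled symbols in the 3 G3-MB lines and open ones in UW228, whereas *EOMES* is highest in UW228, at 6565.

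*LMX1A*, a LIM homeodomain factor of the roof plate and of brush cells, spans 165201867 to 165356715 of chromosome 1 on the minus strand. MB002 had 5 regions over 72.2 kb, D425 had 6 over 23.9 kb and HD-MB03 had 3 over 24.9 kb. Their summed signal was highest in MB002, at 49343, followed by HD-MB03 at 23546 and D425 at 21050. UW228 had no region, and the nearest lay 242 kb from the TSS. All 3 G3-MB lines were thus above UW228, and the highest of them was 2.34-fold above the lowest. Per base pair the order differed, with 0.945 in HD-MB03, 0.883 in D425 and 0.684 in MB002.

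The best-ranked *LMX1A* region of MB002, at rank 505, stitched 7 peaks over 42.5 kb of the gene body and had a signal of 26991. It fell below the SE with the least signal in that line, at 32422. In D425 and HD-MB03 the best regions, at rank 1817 and rank 1071, lay at the same place in intron 4 and fell inside the MB002 region. The HD-MB03 region was a single peak of 1.93 kb with 5.76 signal per base pair, the 35th region of its line by that measure. By the same measure the best *LMX1A* rank was 673 in D425 and 5456 in MB002. No region overlapped the *LMX1A* TSS in any line, which, given the exclusion of promoter flanks, does not show the lack of a peak there.

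Of the 6 merged *LMX1A* loci, the largest pair, from 165216288 to 165259957 and from 165272416 to 165294122, were present in all 3 G3-MB lines. Both lay inside the gene body and over 50 kb from the TSS, so their assignment rests on overlap with the gene. By the TSS window alone, the best *LMX1A* rank was 3264 in MB002 and 11751 in D425, and HD-MB03 had no region. With a window of 100 kb the best rank in D425 moved to 1151. The input was also raised at *LMX1A*, with a density relative to the line's median of 1.96 in HD-MB03, 1.62 in MB002 and 1.26 in D425. Within 5 Mb on either side the median over all regions was 1.47, 1.46 and 0.991, respectively, and in UW228, with no *LMX1A* region, it was 1.26. After division of each signal by relative input density, the best ranks moved to 976 in MB002, 2123 in HD-MB03 and 2875 in D425. The part of the raised input in the *LMX1A* signal was not tested beyond this division.

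*EOMES*, the T-box factor that marks brush cell progenitors, spans 27715953 to 27722713 of chromosome 3 on the minus strand. Its summed signal was 6565 over 11.8 kb in UW228, 2644 over 1.71 kb in MB002 and 783 over 1.25 kb in D425. HD-MB03 had no region, and the nearest lay 235 kb from the TSS. UW228 was thus the highest line for *EOMES*, while 1 G3-MB line had no region. The log2 difference from UW228 was -1.31 in MB002 and -3.07 in D425. Per base pair MB002 was the highest, at 1.54, against 0.625 in D425 and 0.557 in UW228.

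The best *EOMES* regions ranked 7158 in MB002, 13136 in D425 and 5509 in UW228. They overlapped one another at a locus from 27675465 to 27681351, downstream of the gene and at least 41.4 kb from the TSS. This was the 1 *EOMES* locus found in more than 1 line. The strongest of the others was a UW228 region of 5.03 kb with a signal of 1211, and the weakest a D425 region of 203 bp with a signal of 64.0. None overlapped the *EOMES* TSS, and with a window of 25 kb the gene had no region in MB002 and its best ranks moved to 25608 in D425 and 11956 in UW228. By gene body overlap alone *EOMES* had no region in any line.

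*TBR1*, a T-box paralogue of *EOMES* that marks glutamatergic neurons of the cerebellar nuclei and the deep cortex, spans 161416297 to 161425870 of chromosome 2. Its summed signal was 42575 over 23.7 kb in HD-MB03, 20097 over 7.35 kb in D425 and 6157 over 9.68 kb in MB002. UW228 had no region, and the nearest lay 250 kb from the TSS. The G3-MB lines differed 6.91-fold among themselves, and all were above UW228. Per base pair D425 was the highest, at 2.73, against 1.80 in HD-MB03 and 0.636 in MB002.

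The HD-MB03 region of *TBR1*, from 161413705 to 161437400, was a SE at rank 72 and stitched 3 peaks across the whole gene and its TSS. By signal it was the best-ranked region of any of the 9 genes in any line. By mean signal per base pair it ranked 811 in HD-MB03, behind the best *LMX1A* region of that line, at rank 35. In D425 a single peak of 6.29 kb ranked 710, and in MB002 5 stitched peaks ranked 3611, and both began downstream of the TSS, at 2.08 kb and 2.26 kb. These regions lay inside the span of the HD-MB03 region. Relative input density was 0.918 in HD-MB03, 1.74 in D425 and 0.709 in MB002. After division by it *TBR1* ranked 53 in HD-MB03 and 1482 in D425.

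**Figure D2:**
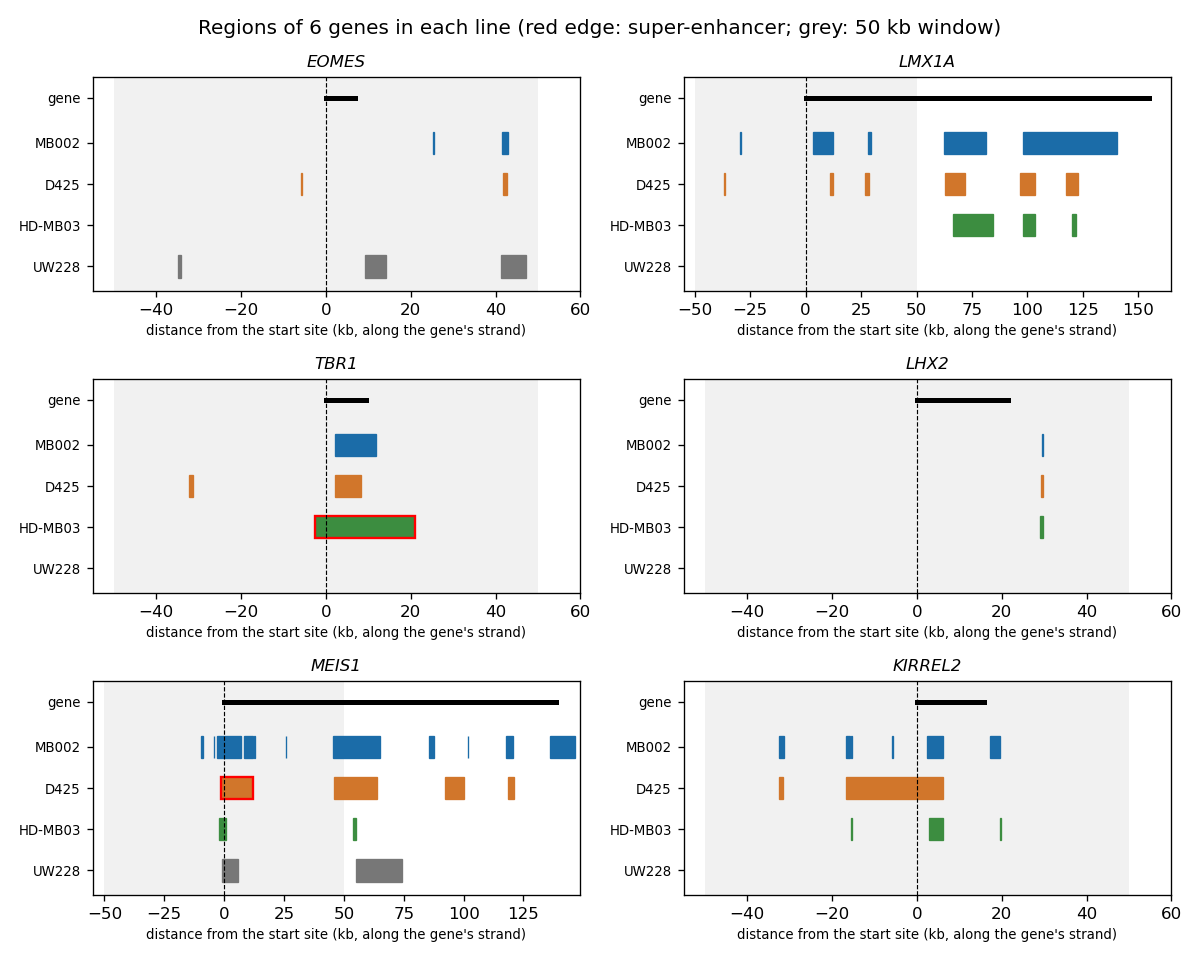
Positions of the regions of 6 genes in the 4 lines, by distance from the TSS in kb along the gene's strand, with the gene as a black bar, the 50 kb window in grey and SEs edged in red. The *LMX1A* regions shared by the G3-MB lines lie beyond the window inside the gene, and *MEIS1* is the 1 gene of these with a region over the RefSeq TSS in all 4 lines, the TSS from which distances are drawn, whereas its GENCODE 44 TSS was overlapped in MB002 and HD-MB03 alone.

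*MEIS1*, a TALE homeodomain factor of the granule cell lineage, spans 66435125 to 66573869 of chromosome 2. MB002 had a summed signal of 59554 over 50.4 kb, D425 of 34141 over 41.7 kb, UW228 of 13838 over 25.5 kb and HD-MB03 of 4236 over 4.75 kb. MB002 and D425 were above UW228 and HD-MB03 was below it, so the groups overlapped. On the log2 scale MB002 differed from UW228 by 2.11, D425 by 1.30 and HD-MB03 by -1.71. The G3-MB lines differed 14.1-fold. Per base pair the order changed, with 1.18 in MB002, 0.892 in HD-MB03, 0.818 in D425 and 0.542 in UW228, and all 3 G3-MB lines were then above UW228.

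A region overlapped the RefSeq TSS of *MEIS1* in every line. The GENCODE 44 TSS, 1.67 kb upstream, was overlapped in MB002 and HD-MB03 and not in D425 or UW228. The region over the RefSeq TSS was 13.5 kb long in D425, where it was a SE at rank 388 with a signal of 27862, and 10.0 kb long in MB002, where it ranked 568 with a signal of 25148. In UW228 it was 6.28 kb long at rank 2848, and in HD-MB03 3.19 kb long at rank 3148. In MB002 a separate peak of 3.88 kb, from 66443358 to 66447238, ranked 1065 with a signal of 16830. It lay almost wholly inside the span of the single D425 region, which ended at 66447118. In MB002 it was not joined to the region over the TSS, and the SE with the least signal there had 32422. The part of stitching in the SE call of D425, and in the lack of one in MB002, was not tested. After division by relative input density, the MB002 region over the TSS also passed the SE cutoff. It did so at a slightly lower place, rank 578, since the cutoff itself moved. The best rank in D425 then fell back to 605, still a SE, and that in HD-MB03 moved up to 1994. A further locus in intron 7, from 66480642 to 66509548, was also present in all 4 lines.

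*PAX6*, a paired homeodomain factor of granule cell precursors, spans 31789026 to 31817961 of chromosome 11 on the minus strand. It had 1 region in MB002, HD-MB03 and UW228 each, with signals of 735, 750 and 698, and none in D425. The signals of the lines with a region were nearly equal, and the groups overlapped. Per base pair they were 1.06, 0.826 and 0.791, and relative input density was 0.300, 0.431 and 1.19, respectively. The HD-MB03 and UW228 regions, of 908 bp and 883 bp, lay at the same place downstream of *PAX6* and inside *ELP4*, whereas the MB002 region lay in intron 8 of *PAX6*. They ranked 8065 in HD-MB03, 14121 in MB002 and 14313 in UW228, and none reached the TSS. After division by relative input density the ranks were 5527, 7676 and 15485, respectively. With a window of 25 kb only the MB002 region was assigned.

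*LHX2*, a LIM homeodomain factor of neural progenitors, spans 124011768 to 124033301 of chromosome 9. It had a single short region in each G3-MB line, of 458 bp with a signal of 848 in MB002, of 677 bp with 779 in D425, and of 719 bp with 497 in HD-MB03. UW228 had no region, and the nearest lay 67.2 kb from the TSS. The 3 regions overlapped one another at 29.1 to 29.9 kb downstream of the TSS, where the sequence above was taken. All G3-MB lines were thus above UW228 at a low level, with ranks of 13300, 12713 and 9496. With a window of 25 kb, or by gene body overlap alone, *LHX2* had no region in any line. With 100 kb it also had one in UW228, so it was no longer absent there, and its best rank in D425 moved to 6789. Its signal in every G3-MB line was still above that of UW228. GENCODE 44 places the *LHX2* TSS 10.1 kb upstream of the RefSeq one, and no region overlapped either.

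*BARHL1*, a homeodomain factor of migrating granule cell precursors, spans 132582606 to 132590252 of chromosome 9. It had a region of 334 bp with a signal of 220 in D425 and a region of 2.86 kb with a signal of 2775 in HD-MB03. MB002 and UW228 had none, with the nearest 61.7 kb and 187 kb from the TSS, so the G3-MB lines overlapped UW228. This turned with the window. At 100 kb MB002 gained a region, the best rank in D425 moved from 19130 to 4421 and all 3 G3-MB lines were above UW228, and at 25 kb HD-MB03 lost its region. The D425 region lay just downstream of the gene, and the HD-MB03 region, at rank 3820, lay inside *DDX31*.

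*ATOH1*, the proneural bHLH factor that specifies the rhombic lip and granule cell precursors, spans 93828753 to 93830964 of chromosome 4. It had no region in any line by the 50 kb rule, although a window of 100 kb gave it one in HD-MB03. The nearest lay 65.9 kb from the TSS in HD-MB03, 296 kb in MB002, 476 kb in D425 and 582 kb in UW228. The line labelled as SHH subtype was thus the one with the farthest region. In the methods, regions flanking promoters were left out before stitching, so the lack of a region does not show the lack of a peak at the promoter, although 297 deposited regions of MB002 and 189 of UW228 lay wholly within 2500 bp of a TSS.

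*KIRREL2*, an immunoglobulin-type protein known as a PTF1A target in ventricular zone progenitors, spans 35851399 to 35867136 of chromosome 19. MB002 had a summed signal of 21193 over 8.68 kb, D425 of 17585 over 23.5 kb and HD-MB03 of 10031 over 4.01 kb. UW228 had no region, and the nearest lay 195 kb from the TSS. All 3 G3-MB lines were thus above UW228, with a 2.11-fold range, and per base pair D425, at 0.747, was below MB002, at 2.44, and HD-MB03, which was close to MB002. The best D425 region stitched 4 peaks over 22.7 kb, a span where MB002 had several separate regions. Gaps between peaks thus count in the D425 length and not in that of MB002, and their part in this order was not tested. The best ranks were 873 in D425, 1232 in MB002 and 1247 in HD-MB03, and their mean of 1117 was the lowest of the 5 genes with a region in all 3 lines, followed by *LMX1A* at 1131. That order turned with the scale. As a percent of each line's regions the mean rank of *LMX1A*, at 5.28%, was below that of *KIRREL2*, at 5.40%, and after division of signal by relative input density *MEIS1* had the lowest mean rank, at 1059, and *KIRREL2* had 1616, with 2076 in MB002 and 1350 in D425. With a window of 100 kb its best rank in HD-MB03 moved to 697.

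The *KIRREL2* TSS is placed 4.46 kb apart by RefSeq and GENCODE 44. The best regions overlapped the GENCODE TSS in all 3 G3-MB lines and the RefSeq TSS in D425. In MB002 and HD-MB03 the protein-coding TSS closest to the centre of the best region was that of *NPHS1*, which encodes nephrin and is transcribed from the opposite strand beside it. With regions given only to the closest TSS, the best *KIRREL2* rank fell to 14328 in MB002 and 12539 in HD-MB03. These regions can therefore not be given to 1 of the 2 genes from position. For the other 7 genes with a region, the TSS closest to each best region was that of the gene itself.

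**Figure D3:**
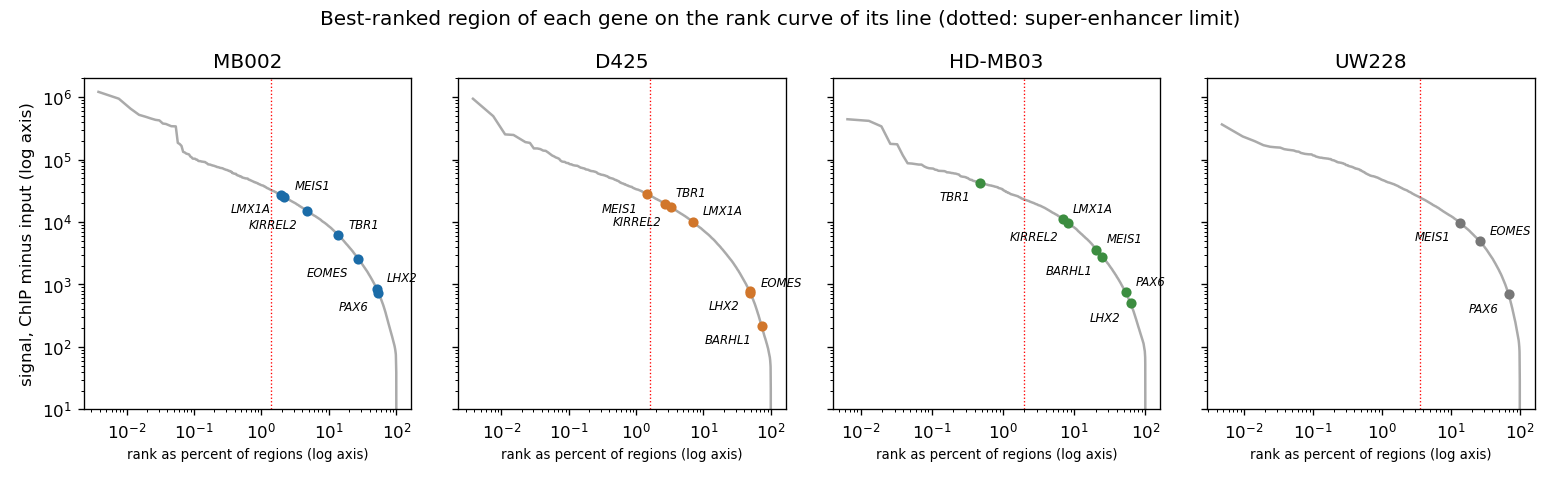
Signal against rank as a percent of all regions (both log axes) in each line, with the best-ranked region of each gene as a point and the SE limit as a dotted line. Of the 9 genes, *MEIS1* in D425 (top 1.47%) and *TBR1* in HD-MB03 (top 0.471%) lie left of the limit, and in MB002 *LMX1A* (1.94%) and *MEIS1* (2.18%) lie just right of it.

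Merged over the 4 lines, the regions of the 9 genes formed 32 loci. Of these, 5 (15.6%) were present in all 3 G3-MB lines and absent from UW228, against 6.60% of the 54584 loci of the whole genome. A further 2 loci (6.25%), both at *MEIS1*, were present in all 4 lines, against 5.30%. Loci seen in UW228 alone numbered 2 (6.25%), both at *EOMES*, against 22.0%, and 18 loci (56.2%) were seen in a single line, against 67.8%.

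By the rule for likeness, which took the gene with the lowest mean of the ranks themselves and which set aside the 8 genes that share a region with it, *NPHS1* among them, the 5 other protein-coding genes closest to *KIRREL2* in log2 summed signal over the 4 lines were *NHP2*, *CST11*, *CSTL1*, *NAPB* and *CDK5R2*. Their Euclidean distances were 0.21, 0.30, 0.30, 0.32 and 0.39. With no *KIRREL2* region in UW228, the measure itself favours genes that lack one there. *CST11* and *CSTL1* had equal signals in every line, and MB002 had 22816, D425 18017 and HD-MB03 12180. *NAPB* had the same signal in HD-MB03 and close ones in MB002, at 23326, and D425, at 18111. Genes with equal signals can share their regions, so the 5 genes need not be 5 separate loci.

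Among 24 other genes of the rhombic lip lineage, MB002 had a region at 18, a share above the 67.7% of all genes, and D425 at 15 (62.5%, against 69.3%). HD-MB03 had one at 11 (45.8%, against 54.4%) and UW228 at 8 (33.3%, against 59.2%). The bHLH factor *NEUROD1* was the strongest, with a signal of 92385 in HD-MB03, 39673 in MB002 and 36431 in D425 and no region in UW228. It had a SE in MB002 and HD-MB03, at rank 253 and rank 48, as *TBR1* did in HD-MB03. *NHLH1* had a SE in MB002, at rank 289, and no region in UW228, and *MEIS2*, with a best rank of 620 in D425, had none in HD-MB03.

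Of the 16 genes of the ventricular zone lineage, MB002 had a region at 11 (68.8%), D425 at 12, HD-MB03 at 7 (43.8%) and UW228 at 6 (37.5%). UW228 and HD-MB03 thus differed by 1 gene, and both were below the share of all genes in their line, as they were for the rhombic lip list. A SE was found for *SKOR1* and *RORA* in MB002, for *LHX1* in D425 and for *FOXP2* in HD-MB03, and for none in UW228. *PTF1A* itself had a region in MB002 and D425 and none in HD-MB03 or UW228.

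Of 10 paralogues of the 9 genes, MB002 had a region at 9 and D425 at 8, shares above those of all genes, and HD-MB03 at 4 and UW228 at 3, shares below them. *LMX1B*, *BARHL2*, *LHX9* and *MEIS2* are in both this list and the rhombic lip list, so the lists are not separate. *KIRREL1* had a SE in MB002, D425 and UW228, with signals of 177678, 40779 and 90310, respectively, unlike *KIRREL2*. *TBX21*, the remaining T-box paralogue, had signals of 15326 in MB002, 12938 in HD-MB03 and 218 in D425 and no region in UW228. *MEIS2* had signals of 34234 in MB002, 23465 in D425 and 19914 in UW228.

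**Figure D4:**
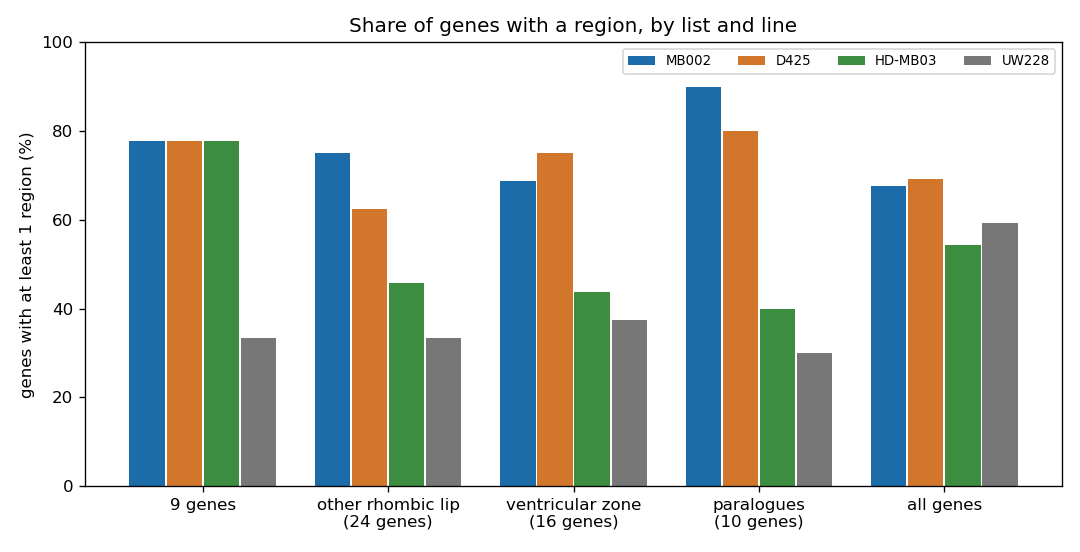
Percent of genes with at least 1 region in each line, as bars from 0, for the 9 genes, 3 lists and all genes. In UW228 the share was 33.3% for the 9 genes, 33.3% for other rhombic lip genes, 37.5% for ventricular zone genes, 30.0% for paralogues and 59.2% for all genes.

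Markers of the labelled subtypes and of other cell types were summed in the same way. Of 7 G3-MB markers, MB002 had a region at 6, D425 at 5, HD-MB03 at 5 and UW228 at 3. Their summed signals were 1229525, 365082, 316456 and 38208, respectively, most of it from *OTX2* in the G3-MB lines, and UW228 had no region at *OTX2*. A SE was found for *OTX2* in all 3 G3-MB lines, for *CRX* in MB002 and D425 and for *IMPG2* in HD-MB03. *NPR3* went the other way, with no region in any G3-MB line and a signal of 25870 in UW228, most of the sum there. All 8 SHH-MB markers had a region in UW228, as did 59.2% of all genes, and none had a SE. *GLI1* and *PTCH1* ranked 11206 and 13373 there. In HD-MB03 *GLI1*, *PTCH1* and *PDLIM3* each had a SE. By the assignment rule a region near several genes counts for each of them, so a SE need not belong to the marker named. Which gene lay closest to the marker regions was not examined. UW228 had the most signal of the 4 lines at *EYA1*, *BOC* and *SFRP1* and less than HD-MB03 at the other 5 markers. The 8 markers summed to 153352 in HD-MB03, 103490 in UW228, 73507 in MB002 and 45141 in D425, led by *PTCH1*, *EYA1*, *GLI2* and *GLI1*, respectively, and *SFRP1* had a region only in UW228.

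The 7 mesenchymal markers summed to 340294 in UW228, led by *CAV1* at 97693, whereas MB002 had 61453, D425 30321 and HD-MB03 29388. *COL1A2*, *CAV1* and *VIM* had a SE in UW228 and none in the G3-MB lines. The 4 neuronal markers summed to 65342 in D425, 57550 in MB002, 38940 in UW228 and 6070 in HD-MB03, most of it from *SYT1*, and *STMN2* had a region only in MB002. The 4 glial markers summed to 18714 in HD-MB03, 12513 in UW228, 4803 in D425 and 1050 in MB002, led by *GFAP* in HD-MB03 and UW228, which had no region in MB002 or D425. The 4 roof plate markers summed to 26956 in D425, 20766 in MB002, 13316 in HD-MB03 and 2169 in UW228, led by *GDF7* in MB002, D425 and UW228. *GDF7* had a SE in D425, at rank 420, and *MSX1* had no region in any line. The part of these programmes in the signal of the 9 genes was not tested.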

How the data were processed

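H3K27Ac and input libraries of 4 MB lines were used, 1 of each per line. The authors aligned reads to GRCh38 with Bowtie2 2.3.0, called peaks with MACS2 2.2.6 and stitched and ranked them with ROSE. The deposited signal of each region is normalized reads per base pair times length, with input not subtracted. The deposited score values are the rank, the SE call and the number of stitched peaks. Signal minus input followed the deposited ranks in all 4 lines, and no region ran past the end of a GRCh38 sequence. Depth is unknown, so no precision from counts is given.

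Tables were read with Python 3.11.15, numpy 2.4.6 and pandas 2.3.3, and plots drawn with matplotlib 3.10.9. Genes were the 27333 of 29860 curated RefSeq genes on the autosomes and X whose strand GENCODE 44 gives. Gene assignment, closest TSS and the tangent cutoff were tested on simulated data. Regions of the 4 lines that overlapped were merged into loci.

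The 9 genes and the lists were chosen with earlier results of these data known. Named genes were the 9 genes, the genes closest to their best regions, list genes with a SE in any line (or the 3 best ranked where fewer than 3 had one), and the 5 genes most like the gene with the lowest mean best rank. Fixed marker lists were given as sums with their leading genes. *PTF1A* and the genes overlapped by a region were named after their values were seen. Alternatives were other windows, gene body or TSS alone, overlap by length, closest TSS, other treatments of input, cutoff and scale, and leaving out each G3-MB line. GENCODE 44 gene models, protein-coding genes alone and 2 other scales for the order of the genes by mean rank were added after the data were seen.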

Additional observations from a re-analysis of the deposited data

How the results depend on the processing

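Of 100 counts under the alternatives, 89 were within 1.5 times the main count and 11 were not. With a TSS window of 25 kb, the genes with a region fell to 4 in HD-MB03. With gene body overlap alone they fell to 4 in D425, to 4 in HD-MB03 and to 1 in UW228, since regions outside genes no longer count. Without input subtraction, 0 genes had a SE in D425 and 1 had a SE in at least 1 G3-MB line and none in UW228. The 200 top-ranked regions gave the same values, 0 and 1. With signal divided by relative input density, 1 gene had a SE in MB002. Leaving out each G3-MB line in turn, genes with a SE in at least 1 G3-MB line and none in UW228 ranged from 1 to 2, at 1 without D425 or without HD-MB03, and genes with more signal in every G3-MB line numbered 5 each time, against 4 with all lines. The count of 4 ranged from 3 to 5 under the other alternatives. *TBR1* in HD-MB03 had a SE under every alternative for the call.

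The median best rank over the 24 pairs of a gene and a line was 3380. It was 1247 with a window of 25 kb, 3820 with 100 kb, 3820 with the TSS window alone, 1152 with gene body overlap alone, 4664 with the closest TSS, 3928 without input subtraction, 2668 after division by relative input density and 2132 by mean signal per base pair. The window and gene body settings also changed which pairs had a region, with 7 pairs lost at 25 kb, 3 gained at 100 kb (*BARHL1* in MB002, *LHX2* in UW228 and *ATOH1* in HD-MB03) and 10 lost by gene body alone. Mean signal per base pair moved 22 of 24 ranks over 1.5-fold, and division by relative input density moved 9. The cause of the other changes was not tested. The order of the 5 genes by mean best rank was also set on 2 scales chosen later, and 4 of the 5 places moved on each. GENCODE 44 gene models, added after the data were seen, changed none of the 24 ranks. Among protein-coding genes alone, also added later, 70.8% had a region in MB002 and 61.9% in UW228.

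No paired analysis was possible because the lines are unrelated and no test was made. Depth is unknown, so the lack of a region says only that none was called.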
